A study of Homo sapiens with 4 samples.

Results

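Kinesin-1 is represented here by its 3 heavy chain genes, KIF5A, KIF5B and KIF5C, and its 4 light chain genes, KLC1, KLC2, KLC3 and KLC4. The 7 genes were chosen by symbol and matched by Ensembl gene identifier, and all 7 are among the 60719 genes of the deposited tables. The tables count RNA that was precipitated with V5-tagged KIF5A from SK-N-AS (written SKNAS in the labels), an established human neuroblastoma line. Cells had received a construct for wild-type KIF5A (V5-WT, called WT) or for a mutant (V5-d27, called d27) 24 hours before the experiment, and each group holds 2 precipitates. V5 is a short peptide tag that the antibody on the beads recognises. Both groups therefore carry a transfected KIF5A, the labels name no change to the endogenous kinesin-1 genes, and no untransfected, mock or input library is used here. Every difference below compares d27 with WT precipitates. How many cells held an RNA, how much of it each cell held and what share of it co-purified cannot be told apart.

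As background, kinesin-1 walks towards the plus ends of microtubules with a pair of heavy chains, whose heads burn ATP, and a pair of light chains, which bind many of the cargo adaptors and help to keep the idle motor folded. KIF5B is made in nearly all tissues, whereas KIF5A and KIF5C are enriched in neurons. In neurons the motor carries mitochondria, vesicles and RNA granules into axons and dendrites, and the heavy chain tail both binds cargo and holds the idle motor in its inhibited state. Mutations of KIF5A that are linked to amyotrophic lateral sclerosis are known to make its mRNA skip exon 27, which changes the end of that tail. The labels do not spell out d27, and it is read here as this change from knowledge of the study.

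Exon 27 is shown because it is the stretch by which the constructs would differ if d27 is read that way, and because it is small against what a gene count measures. In GENCODE release 29 it lies at chr12:57582602-57582629 (GRCh38, plus strand), is coding, and is exon 27 of the 29 exons of the longest KIF5A transcript. Its 28 bases are not a multiple of 3 and make up 0.904% of the coding sequence of 3096 bases, so one count per gene does not tell the constructs apart.
KIF5A exon 27: gaaatgccacagatatcaatgacaatag

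A second pair of sequences bears on whether reads of the very abundant KIF5A could be counted for its relatives. The longest exact stretch that any annotated KIF5A transcript shares with a KIF5B transcript is 14 bases, and with a KIF5C transcript 23 bases. The shorter stretch lies inside the longer one and is in capitals.
KIF5A and KIF5B: TACTCCATGGATGA
KIF5A and KIF5C: atcTACTCCATGGATGAgaacct
No stretch of 25 bases is shared between any of the 3 heavy chains. Among light chains, exact stretches were longer: 41 bases between KLC1 and KLC4, 33 between KLC2 and KLC3, 29 between KLC1 and KLC3, 26 between KLC3 and KLC4, 24 between KLC2 and KLC4 and 20 between KLC1 and KLC2. These lengths describe exact matches in GENCODE release 29, and how the aligner treated mismatches is not given in the sources used here.

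Across the whole series, library totals over genes ran from 8142869 (WT replicate 1) to 18335151 (d27 replicate 1), and WT replicate 2 (10811134) and d27 replicate 2 (10483082) were close in depth. In log2 CPM across tested genes WT replicate 2 stood farthest from the rest: Pearson's r was 0.907 with WT replicate 1 and 0.842 and 0.865 with d27 replicates 1 and 2. For WT replicate 1, r with d27 replicates 1 and 2 was 0.906 and 0.920, about that with its own group, and the d27 libraries correlated at 0.954. Without WT replicate 2, KLC2 was still called (log2 1.20, edgeR adjusted p = 0.0388) and no other member was. Reads that were not given to a gene (no feature, ambiguous or aligned to several places) made up 47.3% to 47.6% of all entries in WT and 25.9% to 36.8% in d27. All 10 adrenergic neuroblastoma markers had counts in at least 1 library, and their summed level, on the TMM-scaled counts-per-million scale (CPM, with TMM the trimmed mean of M-values), was 1166 to 1211 in WT and 991 to 1314 in d27. HAND2 and GATA3 were each detected in every library, while TH had 6 counts in all. The 9 mesenchymal markers summed to 3436 to 3686 CPM in WT and 4543 to 4976 in d27, but without FOSL1 (166 and 143 CPM in WT, 1917 and 1749 in d27) the other 8 summed to 3269 to 3543 CPM in WT and 2794 to 3059 CPM in d27. These 8 did not move together. VIM (1809 and 1861 CPM in WT, 1186 and 1340 in d27), FN1 and TWIST1 were lower in both d27 libraries. CD44 (625 and 366 CPM in WT, 1152 and 781 in d27), YAP1, WWTR1 and SNAI2 were higher in both, and PRRX1 overlapped between groups. Of 6 markers of other cells, EPCAM, HBB and GFAP were at 0 in all 4 libraries, and nearly all of the summed level (164 to 192 CPM in WT, 80.1 to 101 in d27) was PTPRC. The part of these differences in the results below was not tested.

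In d27 precipitates the light chain mRNA KLC2 rose about 2-fold, and the other 5 kinesin-1 chains that could be tested did not pass. KLC1, KLC4 and KIF5C had negative log2 fold changes between -1.03 and -0.51, and KIF5A and KIF5B were within 0.20 of 0. Of 7 members, 6 passed the filter on low counts. The edgeR quasi-likelihood test called 1 of these 6 higher in d27 and 0 lower (adjusted p under 0.05 over all 14909 genes tested), where 8.00% of all tested genes were called higher, 3.70% lower and 11.7% in either direction. The groups did not overlap for 3 of the 6 (KIF5C, KLC1 and KLC2), against 61.2% of all tested genes, so neither share stood far from its background. The median log2 fold change of the 6 was -0.35, and that of all tested genes was 0.00 (-0.00043). With DESeq2, KLC1 was also called (adjusted p = 0.0271), and without d27 replicate 1 no member was.

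**Figure D1:**
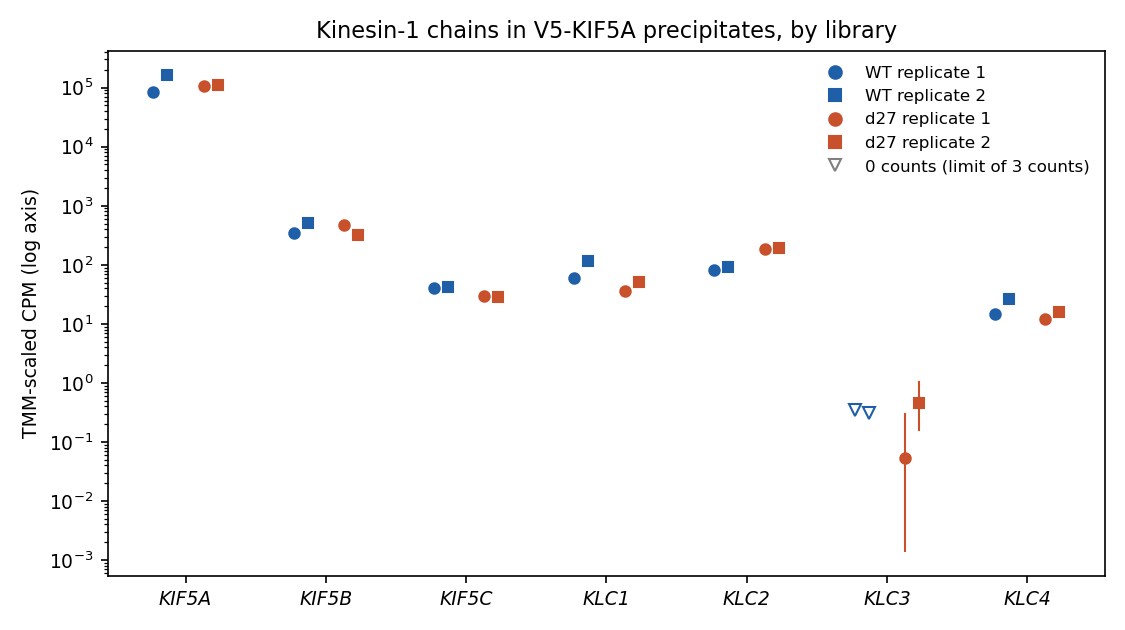
Level of each kinesin-1 chain in every library, in TMM-scaled CPM on a log axis. Circles are replicate 1 and squares replicate 2, WT in blue and d27 in orange, and bars are exact 95% Poisson intervals for counting error only, mostly smaller than the symbols. Open triangles mark the limit of 3 counts where KLC3 had none. KIF5A lies more than 200-fold above every other chain, and KLC2 is the tested chain whose d27 libraries both lie above both WT libraries.

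Among the heavy chains, KIF5A is the chain expressed from the construct, and its count adds transfected and endogenous transcript. The gene lies on chromosome 12 (57549998 to 57586632, plus strand). Its counts were 735168 and 1598509 (WT replicates 1 and 2) and 1989252 and 1175335 (d27 replicates 1 and 2), and it was the most counted gene in each of the 4 libraries. On the TMM scale these were 83658 and 166138 CPM in WT and 108245 and 109266 in d27. The WT libraries differed from each other by 1.99-fold and lay on either side of both d27 libraries, which were within 1.01-fold of each other. The groups therefore overlapped, and the log2 fold change of -0.20 ± 0.49 (SE, edgeR adjusted p = 0.821) was smaller than its error. Without WT replicate 2 it was 0.40. Of all reads given to genes, KIF5A took 9.03% and 14.8% in the WT libraries and 10.8% and 11.2% in the d27 libraries. Their exact (Clopper-Pearson) 95% intervals lay within 0.03 percentage points of each value and cover counting error only. The mean share was 11.9% ± 4.1 (SD, n = 2) in WT and 11.0% ± 0.26 (SD, n = 2) in d27 (two-sided exact permutation p = 1, where 2 against 2 cannot give less than 0.33). When reads without a gene were added to the total, the shares were 4.73% and 7.79% in WT and 8.04% and 7.08% in d27, and the difference of the means turned from -0.88 to 1.30 percentage points.

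KIF5B, the ubiquitous heavy chain (chromosome 10, 32009010 to 32056431, minus strand), was the next most abundant member. It had 348 and 511 CPM in WT and 476 and 314 CPM in d27, from 3060 to 8750 counts per library. The highest value was in WT replicate 2 and the lowest in d27 replicate 2, and the ranges of the groups overlapped between 348 and 476 CPM. The fitted log2 difference of -0.12, with an SE of 0.31, did not pass edgeR (adjusted p = 0.830). It changed sign without WT replicate 2 (0.21) and without d27 replicate 2 (0.18).

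KIF5C, the second neuron-enriched heavy chain (chromosome 2, 148875250 to 149026759, plus strand), was lower in both d27 libraries by a margin wider than the gap between replicates. It had 40.1 and 42.0 CPM in WT and 29.7 and 28.1 CPM in d27, from 302 to 546 counts per library, so replicates agreed within 1.06-fold. The exact Poisson intervals of counting error did not meet between groups: the lowest bound in WT was 36.0 CPM and the highest in d27 was 32.3 CPM. The log2 fold change of -0.51 ± 0.25 (SE) did not pass edgeR over all genes (adjusted p = 0.222, and 0.143 to 0.649 over 13 alternatives, negative in each). With an offset for GC content and exonic length it was -0.29.

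Per length, heavy chain levels differed far more between genes than between groups. Values here are the CPM above divided by the exonic length in kilobases (RPKM), with those per kilobase of coding length after them. KIF5A stood at 19949 ± 9315 in WT and 17370 ± 115 in d27 (SD, n = 2 each), or 40342 and 35128 per coding length. KIF5B stood at 73.1 ± 19.6 and 67.2 ± 19.5, or 149 and 137 per coding length. KIF5C stood at 4.45 ± 0.15 and 3.14 ± 0.13, or 14.3 and 10.1 per coding length. KIF5A exceeded KIF5B per exonic length by 226-fold and 305-fold in WT and by 213-fold and 327-fold in d27. The KIF5A count mixes construct and endogenous transcript, which may differ in untranslated sequence. Neither length is therefore sure to fit it, and the size of these ratios depends on the length taken. These ratios overlapped between groups (two-sided exact permutation p = 1, adjusted p = 1 over 5 ratios). KIF5B made up 93.17% and 95.02% of KIF5B plus KIF5C in WT and 96.17% and 94.61% in d27, which also overlapped (exact permutation p = 0.667, adjusted p = 0.834).

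Among the light chains, KLC2 (chromosome 11, 66257294 to 66267860, plus strand) gave the one call in the family. Its counts of 731 and 895 (WT) and 3430 and 2036 (d27) were 83.2 and 93.0 CPM in WT and 187 and 189 CPM in d27. Both d27 libraries lay about 2-fold above both WT libraries, and replicates were within 1.12-fold of each other. KLC2 rose from 88.1 ± 7.0 to 188 ± 1.9 CPM (SD, n = 2 each), which the edgeR fit put at 2.13-fold (log2 1.09, SE 0.23, adjusted p = 0.0260). Its log2 fold change lay above that of 87.0% of tested genes, and 5.26% of them had a smaller unadjusted p, so a change of this size was not rare in the comparison. The call was lost without d27 replicate 1 (log2 1.12, adjusted p = 0.0522), and over 13 alternatives the log2 fold change ran from 1.03 to 1.20.

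KLC1, the light chain best known from neurons (chromosome 14, 103561896 to 103714249, plus strand), had values in the opposite order. It had 59.5 and 115 CPM in WT and 35.8 and 50.3 CPM in d27, from 523 to 1111 counts per library. Both d27 libraries were below both WT libraries, but the WT libraries differed by 1.94-fold. The log2 fold change was -1.03 ± 0.36 (SE) and did not pass edgeR (adjusted p = 0.0985). It passed in 5 of 13 alternatives, among them DESeq2 (adjusted p = 0.0271), no filter on low counts (0.0207) and the fits without WT replicate 1 (0.00140) and without d27 replicate 2 (0.0339). With the offset for GC content and exonic length the log2 fold change was -0.34 (adjusted p = 0.369), and without WT replicate 2 it was -0.45 (0.422).

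The KLC1 count is also the least certain of the family, since its annotated exons share 5756 bases with XRCC3 and 72 bases with BAG5, both on the opposite strand. XRCC3, a DNA repair gene, had 21.4 and 34.2 CPM in WT and 32.3 and 36.3 in d27 (log2 0.30 ± 0.31 SE, edgeR adjusted p = 0.551). BAG5, which encodes an HSP70 cochaperone, had 53.3 and 44.8 CPM in WT and 123 and 87.9 in d27, and rose (log2 1.10 ± 0.27, edgeR adjusted p = 0.0377). Without the strand setting of the counting, reads in the shared bases cannot be told apart. A further 1989 exonic bases of KLC1 are shared with ENSG00000256500, a protein-coding gene on the same strand that had 0 counts in all 4 libraries, and no strand setting separates these. KLC2 shares bases with 3 antisense genes that had at most 5 counts each in any library. KLC4 shares 329 exonic bases with CUL7 and 373 with MRPL2, both on the opposite strand. KIF5A and KIF5B overlap no other annotated gene, and KIF5C shares no exonic base with one.

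KLC4 (chromosome 6, 43040777 to 43075099, plus strand), a light chain with a broad tissue range, was the lowest of the tested members. It had 14.9 and 26.8 CPM in WT and 12.2 and 15.9 CPM in d27, from 131 to 258 counts per library. WT replicate 1 fell between the d27 libraries, so the groups overlapped (log2 -0.57 ± 0.37 SE, edgeR adjusted p = 0.329). Without WT replicate 1 the value was -0.89 (adjusted p = 0.0511), and without WT replicate 2 it was -0.07. KLC3, a light chain known from testis (chromosome 19, 45333434 to 45351520, plus strand), had no count in either WT library, 1 in d27 replicate 1 and 5 in d27 replicate 2. Up to 3 counts are allowed by a count of 0, or 0.341 CPM in WT replicate 1 and 0.312 CPM in WT replicate 2. KLC3 was not tested, and a difference between groups was not detectable at this depth. Its exons share 535 bases with the opposite-strand gene ERCC2, which had 372 to 824 counts per library.

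Per length, KLC2 was the leading light chain in d27, and its place in WT depended on the length used. The annotated exons of KLC1 add up to 19251 bases, of which 1917 are coding in the longest coding transcript, against 5479 and 1866 bases for KLC2. The exonic length of KLC1 includes the bases it shares with XRCC3 and ENSG00000256500. Reads there may have been set aside as ambiguous, so KLC1 values per exonic length may be too low. KLC2 shares per exonic length may then be too high. Per exonic length KLC2 stood at 16.1 ± 1.3 RPKM in WT and 34.3 ± 0.3 in d27, KLC1 at 4.54 ± 2.06 and 2.23 ± 0.53, and KLC4 at 3.25 ± 1.31 and 2.19 ± 0.40 (SD, n = 2 each). Per coding length KLC2 stood at 47.2 ± 3.7 and 101 ± 1.0, KLC1 at 45.6 ± 20.6 and 22.4 ± 5.4, and KLC4 at 10.9 ± 4.4 and 7.36 ± 1.35. KLC2 and KLC1 did not differ beyond their spread in WT on the coding scale, and KLC1, KLC4 and KIF5C did not on the exonic scale. In d27 KLC2 exceeded KLC1 in both libraries on either scale.

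The groups did not overlap in the make-up of the light chain mRNA. KLC2 made up 73.7% and 62.5% of KLC1, KLC2 and KLC4 in WT per exonic length, with exact binomial 95% intervals of 71.6% to 75.7% and 60.5% to 64.5%. In d27 it made up 90.1% and 87.2%, with intervals of 89.4% to 90.7% and 86.2% to 88.1%. The d27 shares lay above both WT shares, by 20.5 percentage points between the means and 14.9 without WT replicate 2 (two-sided exact permutation p = 0.33, the smallest that 2 against 2 can give; adjusted p = 0.555 over 5 ratios). Per coding length the shares were 53.4% and 40.2% in WT and 80.0% and 74.6% in d27, a difference of 30.5 points. These shares compare genes within a library and so do not depend on how libraries were scaled to each other. A GC or length effect that differs between libraries would remain in them, and no share was computed with an offset for it. With the offset for GC content and exonic length, the log2 fold change of KLC1 moved from -1.03 to -0.34. That of KLC2 moved from 1.09 to 1.08. The intervals hold the mix of the other chains fixed and cover counting error only.

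KLC4 made up 11.3% and 15.4% of the light chains in WT and 5.04% and 6.25% in d27 per exonic length (exact permutation p = 0.33, adjusted p = 0.555). KLC2 is part of this total, so a rise of KLC2 by itself lowers the KLC4 share. The level of KLC4 itself overlapped between groups, so its share is not a result separate from that of KLC2. The direct ratio of KLC2 to KLC1, added after the values were seen, was 1.44 and 0.828 in WT and 5.36 and 3.87 in d27 per coding length, so its mean was 4.08-fold higher in d27. Light chains together, set against KIF5B plus KIF5C, gave 0.324 and 0.297 in WT and 0.449 and 0.702 in d27 per exonic length (exact permutation p = 0.33, adjusted p = 0.555). Per coding length they gave 0.620 and 0.648 in WT and 0.714 and 1.15 in d27. The difference of the means was 0.265 per exonic and 0.296 per coding length. Without d27 replicate 2 it was 0.139 and 0.080. The d27 libraries differed from each other in this ratio by more than d27 replicate 1 differed from WT, and KIF5B, which was lower in d27 replicate 2, enters its denominator.

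**Figure D2:**
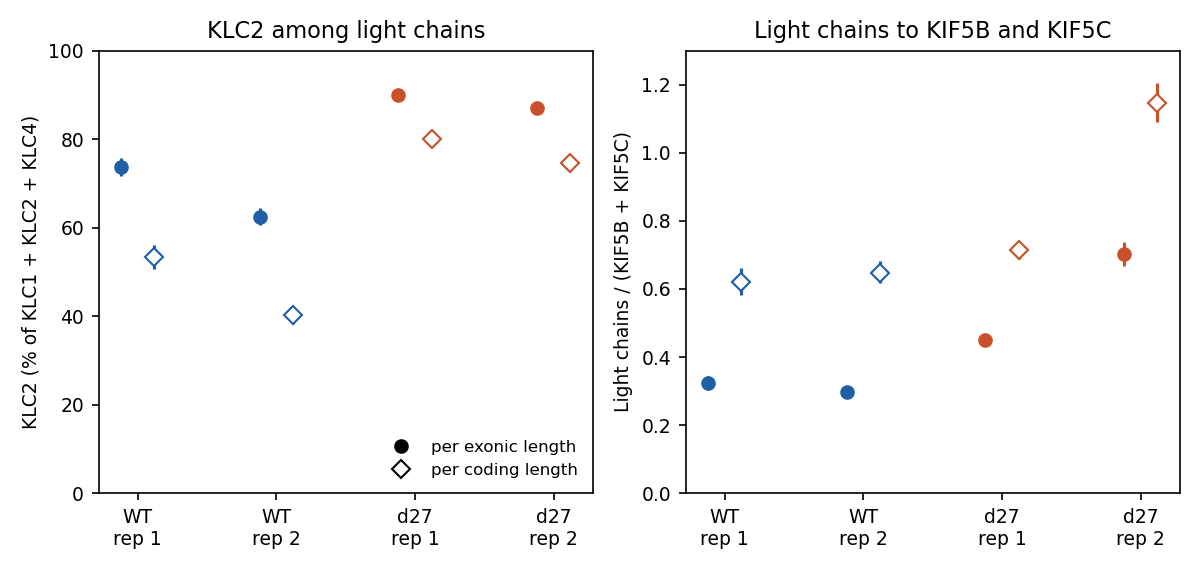
Light chain make-up in each library, WT in blue and d27 in orange, with filled circles per exonic length, open diamonds per coding length and bars for exact binomial 95% intervals. The left panel gives KLC2 as a percentage of KLC1, KLC2 and KLC4, where on each scale both d27 libraries lie above both WT libraries. The right panel gives all 3 light chains over KIF5B plus KIF5C, where d27 replicate 2 (0.702 per exonic length) lies far above the other libraries.

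The members' GC content and length differed widely. The longest transcript of KIF5B had 39.1% GC, that of KIF5C 44.5%, KIF5A 51.4%, KLC1 57.9%, KLC4 58.7% and KLC2 61.7%. With the offset for GC content and exonic length KLC2 had a log2 fold change of 1.08 (adjusted p = 0.0118), KLC4 had -0.50 and KIF5B -0.37.

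**Figure D3:**
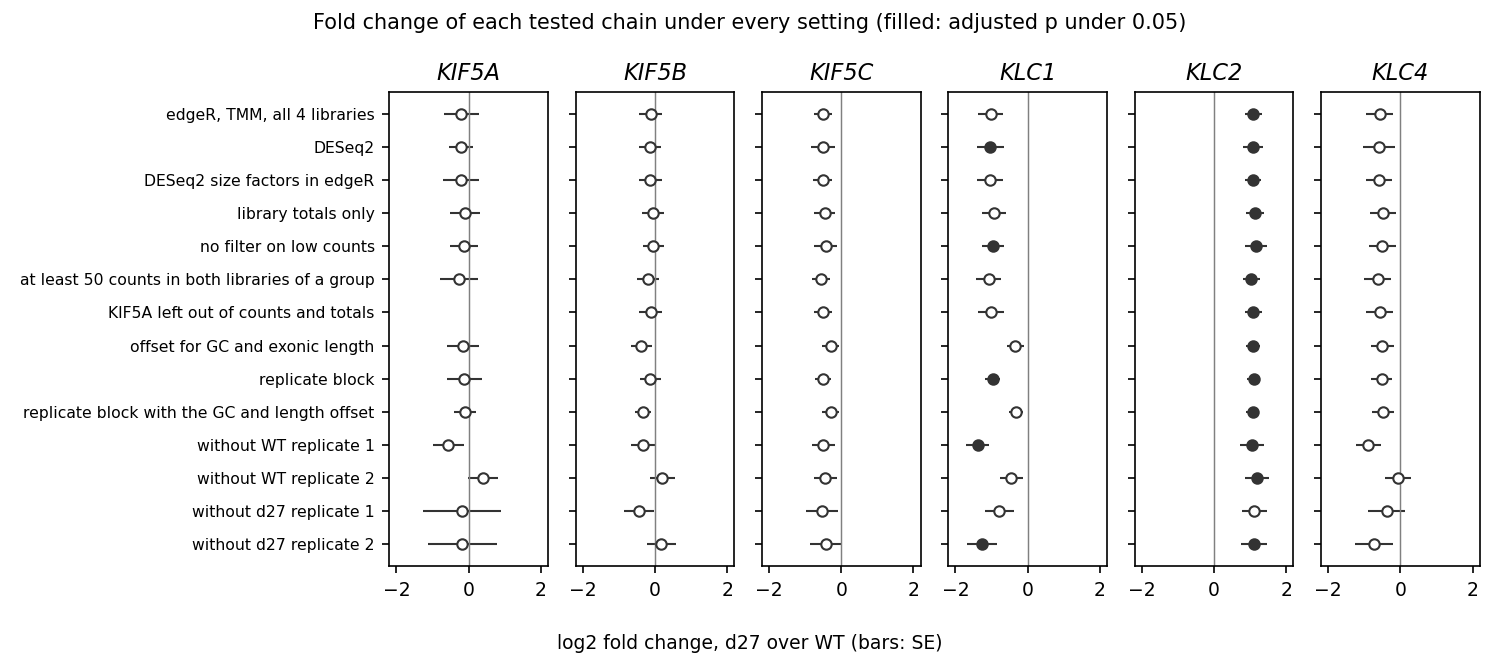
Log2 fold change (d27 over WT) of each tested chain under the 14 settings tried, with bars for the SE and filled points where the adjusted p was under 0.05. KLC2 stays between 1.03 and 1.20 and is called in all but the fit without d27 replicate 1. KIF5A and KIF5B lie on both sides of 0, and KLC1 is called in 5 of 13 alternatives. KIF5A has no value where it was left out of the counts.

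Each member's profile over the 4 libraries was matched to those of 8847 protein-coding genes with a mean of at least 10 CPM, as the root mean square difference of mean-centred log2 CPM. With 4 libraries many genes match closely by number alone, so the matches are a description and say nothing of function. KIF5A was closest to LRRC8A (0.040), and KIF5B to HNRNPK (0.050) and YTHDC1 (0.053). KIF5C was closest to WDR33 (0.013) and PPM1G (0.014), with 211 genes within 0.1. KLC1 was closest to DHX37 (0.029) and BLTP2 (0.029), KLC2 to LSM14A (0.027) and ITPK1 (0.035), and KLC4 to OSBPL7 (0.029) and RFC2 (0.039). Between members, the nearest profiles were those of KLC1 and KLC4 (0.231) and of KIF5A and KLC4 (0.244), and the farthest apart were those of KLC1 and KLC2 (1.08).

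The partners of the motor were read from a list of 27 adaptors, cofactors and cargo-side proteins, such as the JNK-interacting scaffolds, the TRAK and Miro proteins of mitochondria and the MAP7 proteins that help kinesin-1 onto microtubules. Of 25 that were tested, 1 rose, 2 fell and 22 did not pass edgeR, against 8.00% and 3.70% of all genes. Their median log2 fold change was -0.09, near the 0.00 of all genes. ZFYVE27, which encodes the endoplasmic reticulum protein protrudin, had 22.6 and 23.6 CPM in WT and 61.3 and 60.9 in d27, and rose (log2 1.40 ± 0.25 SE, edgeR adjusted p = 0.0181). SYNE2, a nuclear envelope protein that recruits kinesin-1 to the nucleus, had 117 and 201 CPM in WT and 39.0 and 60.1 in d27, and fell (-1.68 ± 0.34, edgeR adjusted p = 0.0248). HTT, which encodes huntingtin, had 239 and 359 CPM in WT and 104 and 140 in d27, and fell (-1.29 ± 0.30, edgeR adjusted p = 0.0331). With the offset for GC content and exonic length the SYNE2 call (-0.89, adjusted p = 0.0769) and the HTT call (-0.63, 0.0931) were lost, and the HTT call was also lost without WT replicate 2 (-0.95) or d27 replicate 1 (-1.07).

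Other kinesin genes had more negative log2 fold changes than most kinesin-1 chains, which is a description with no test of that difference. Of 37 in the list, 35 were tested, of which 11 fell, 0 rose and 24 did not pass edgeR (against 3.70% and 8.00% of all genes), and their median log2 fold change was -0.93. KIF5A, KIF5B, KIF5C, KLC2 and KLC4 all lay above that median, and KLC1 just below it. Without WT replicate 2 the median of the other kinesins was -0.47, and KIF5C and KLC1 were each at -0.45. The 4 with the lowest p serve in mitosis, but the called kinesins were not sorted by role, so this describes only those 4. KIFC1, which focuses spindle poles, had 118 and 129 CPM in WT and 50.4 and 51.2 in d27 (log2 -1.28 ± 0.23 SE, edgeR adjusted p = 0.0178). KIF2C, a microtubule depolymerase at centromeres, fell by 1.47 ± 0.27 on the log2 scale, KIF11, which slides spindle microtubules apart, by 1.39 ± 0.25, and KIF14, which acts in cytokinesis, by 1.28 ± 0.25. The d27 libraries of these 4 lay below both WT libraries, which a choice by lowest p favours. Over the list, the groups did not overlap for 26 of the 35 tested kinesins, against 61.2% of all tested genes. The count of kinesins called was 20 without WT replicate 1, 9 without WT replicate 2 and 5 without d27 replicate 1.

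**Figure D4:**
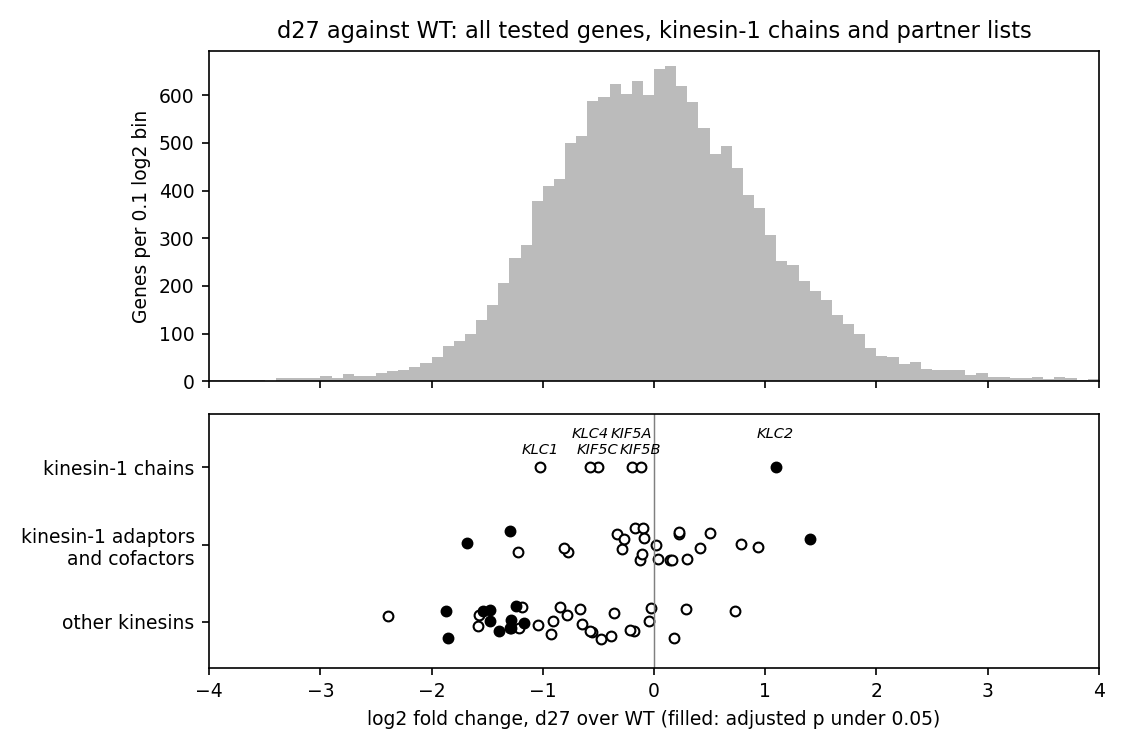
The upper panel is the histogram of log2 fold changes (d27 over WT) of all 14909 tested genes, on an axis that ends at 4 on either side, and the lower panel has 1 point per gene for the 6 tested kinesin-1 chains, 25 adaptors and cofactors and 35 other kinesins. Filled points had an edgeR adjusted p under 0.05, and points within a list are spread vertically for legibility only. KLC2 is alone among the chains on the right of 0, the adaptors are spread about 0 and most other kinesins lie to the left.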

How the data were processed

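Per the labels' protocols, anti-V5 beads were eluted into Trizol, and after ribosomal depletion the RNA went into strand-marking libraries, with fragmentation set by RNA integrity. HTSeq, DESeq2 and GRCh38 are named in the submitters' processing notes, with aligner, annotation release, strand setting and versions not given in the sources used here. Each library has its own deposited table of whole-number counts by gene, not normalized. HTSeq summary entries entered neither library sizes nor tests (47.6%, 47.3%, 25.9% and 36.8% of entries in WT replicates 1 and 2 and d27 replicates 1 and 2).

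Identifiers were matched without version to a table of gene names (60419 with a symbol) and to GENCODE release 29 (58444 genes), which gave positions, exonic and coding lengths and, with its transcripts, GC content. The test was edgeR 4.0.16 (R 4.3.3): TMM, filterByExpr (minimum count 10, total 15), robust glmQLFit and glmQLFTest on group, with Benjamini-Hochberg adjustment over 14909 genes and a threshold of 0.05. The SE is the log2 fold change over the square root of F. In counts simulated for the d27 against WT comparison (14260 genes tested), 28.4% of 2-fold and 91.0% of 4-fold changes were recovered and 5 unchanged genes called. The simulation changed only 67 genes by 2-fold, 67 by 4-fold and 66 by 8-fold, and drew all counts from the dispersion trend. In the real libraries 1743 genes were called, so these rates may not carry over to them. Ratios were compared by exact permutation over libraries (scipy 1.17.1). Alternatives were DESeq2 1.42.0, other scalings and filters, KIF5A left out, an offset for GC content and exonic length (mgcv 1.9.3), a replicate block and each library left out. The named genes are all members, up to 4 called genes per list and direction by lowest p, the 2 nearest profiles per member (1 is not reported here) and genes that share a member's locus. Members and lists were chosen with earlier results of these data known. Nothing in the labels says that replicates are separate cultures, so p-values measure only how these libraries vary, possibly for technical reasons.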

Additional observations from a re-analysis of the deposited data

How the results depend on the processing

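The 1743 genes called in all became 2909 with DESeq2, 2862 without a filter, 3575 with a replicate block and 4045 with a replicate block and the GC and length offset, and ran from 768 (without d27 replicate 1) to 4851 (without WT replicate 1) with single libraries left out. The 1 member called became 2 with DESeq2, without a filter and with the replicate block, KLC1 being added in each (log2 -1.04, -0.96 and -0.97), and ran from 0 to 2 with libraries left out. KLC2 ran from 1.06 to 1.20 with libraries left out, KLC1 from -1.39 to -0.45, KIF5A from -0.57 to 0.40 and KIF5B from -0.43 to 0.21. KIF5C and KLC4 kept a negative value and missed the threshold in all 13 alternatives. The 3 called adaptors became 1 with the GC and length offset and ran from 2 to 5 with libraries left out. The 11 called kinesins became 18 with the replicate block, with or without the offset, and ran from 5 to 20 with libraries left out. Without a filter the median of all genes moved to 0.31, and KLC2 was at 1.16. The KIF5A share differed by 1.30 percentage points with all entries as the total and ran from -3.76 to 2.00 with libraries left out, against -0.88. The KLC2 share of light chains differed by 30.5 points per coding length and 30.7 by counts alone, an alternative chosen after seeing the data, and the KLC4 share by -4.71 on both. The KIF5A to KIF5B ratio differed by -52.0 to 61.1 with libraries left out. The planned ratio without KIF5A among heavy chains is the one reported, so it has no separate value. Whether same-numbered libraries were paired is not given in the labels. Their deviations from the group means had r = 0.068 across genes, and the replicate block raised the calls to 3575. With 2 libraries per group these values cannot settle whether the libraries were paired. With 2 libraries per group, and few 2-fold changes recovered in simulation, a chain that missed the threshold is not shown to be alike in both groups.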

Other observations

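PTPRC, which encodes the leukocyte surface phosphatase CD45, was on the list of markers that a neuroblastoma culture should not hold, and was singled out after its values were seen. It had 190 and 162 CPM in WT replicates 1 and 2 and 101 and 79.8 CPM in d27 replicates 1 and 2, more than KLC1 or KIF5C in each library. EPCAM, HBB and GFAP had no count in any library, PECAM1 had 34 counts over all 4 and ALB had 1. The log2 fold change of PTPRC was -0.96 ± 0.24 (SE, edgeR adjusted p = 0.0433), and the call was lost with each single library left out (adjusted p from 0.0504 to 0.204) and with library totals only (0.0769).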
